A study of Mus with 96 samples.

Results

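De novo lipogenesis is the synthesis of fatty acids from carbohydrate carbon, and its transcripts were followed here as 10 genes in mouse liver. The genes, chosen by name as Srebf1, Acly, Acaca, Acacb, Fasn, Scd1, Elovl6, Me1, Thrsp and Pnpla3, were read from their rows in a count table of 55487 genes. In this pathway citrate leaves the mitochondrion and is split to acetyl-CoA, which is carboxylated to malonyl-CoA, built into palmitate, and then elongated and desaturated, with NADPH as the reductant. In liver the program is driven after feeding by the transcription factors SREBP1c and ChREBP, and it is known to vary over the day.

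The livers came from 96 mice on a C57BL/6J background, 49 male and 47 female, aged 8 to 10 weeks before acclimation and the diet period, and kept in 12 hours of light and 12 hours of dark. Hep-Bmal1KO mice carried albumin-driven Cre and 2 floxed Bmal1 alleles, so the deletion was aimed at hepatocytes. Whether other liver cells kept the gene was not tested here. Hep-Bmal1WT littermates carried the same floxed alleles without Cre. Of each genotype, 24 mice ate chow and 24 a choline-deficient high-fat diet (cdHFD) for 2 weeks, and 4 mice per genotype and diet were killed at each of ZT2, 6, 10, 14, 18 and 22 (zeitgeber time, hours after lights on). The paper also gives the cdHFD less carbohydrate and less protein than chow, and lists cholesterol and a methionine content for it. These parts of the diet cannot be told apart here. Each library counted 3′ tags of mRNA, and each level is a CPM value, that is, a count relative to the library's total after adjustment by the trimmed mean of M values (TMM). Comparisons used edgeR's quasi-likelihood test over the 15548 genes with at least 100 counts in all, and a gene was called at a Benjamini-Hochberg adjusted p under 0.05 over all of these genes.

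Library totals ran from 1861740 to 9718615 counts on genes, and the share of mitochondrial counts had medians between 5.88% and 7.03% in the 4 combinations of genotype and diet. Arntl, the gene name of Bmal1, ranged between 0.748 and 21.2 CPM over the 12 group means of Hep-Bmal1WT livers and between 2.43 and 9.83 CPM over those of Hep-Bmal1KO livers. A 3′ tag need not lie in the deleted part, so this level does not check the deletion. The position of each library between the genotypes was therefore read from 11 clock genes and from 20 other genes that separated the genotypes at the other ZTs. On both sets 7 libraries, 4 on chow and 3 on cdHFD, lay nearer the other genotype, and results that rest on them are given with and without them. Because they were picked from the same data for this position, leaving them out can by itself widen genotype differences. On the plate, columns of wells held 1 genotype and diet each, and mouse numbers ran in a separate range for every diet and ZT, so these cannot be told apart from diet, genotype or ZT.

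Of the 10 genes, 9 passed the filter. Pnpla3, which encodes the lipid droplet protein adiponutrin, had 47 counts in all 96 livers and was above 0 in 25 of them. It gave 11 counts in Hep-Bmal1WT livers on chow, 16 on cdHFD, 8 in Hep-Bmal1KO livers on chow and 12 on cdHFD, and it was not tested.

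In the mouse build GRCm38.p6, 4 of the genes lie on chromosome 11 at separate loci. Srebf1, which encodes SREBP1, spans chr11:60199084-60224186, Acaca chr11:84129635-84401651, Acly chr11:100476352-100528000 and Fasn chr11:120805958-120825166. Elovl6 lies at chr3:129532386-129638495, Acacb at chr5:114146321-114250761, Thrsp at chr7:97412933-97417550, Me1 at chr9:86581363-86695914, Pnpla3 at chr15:84167776-84189521 and Scd1 at chr19:44394450-44407709. By RefSeq, the Acaca locus shares 19116 bases with the predicted gene Gm11437, the Me1 locus 473 bases with A330041J22Rik and the Srebf1 locus 114 bases with Rai1. Whether the counts of these 3 genes hold reads of their neighbours was not tested.

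**Figure D1:**
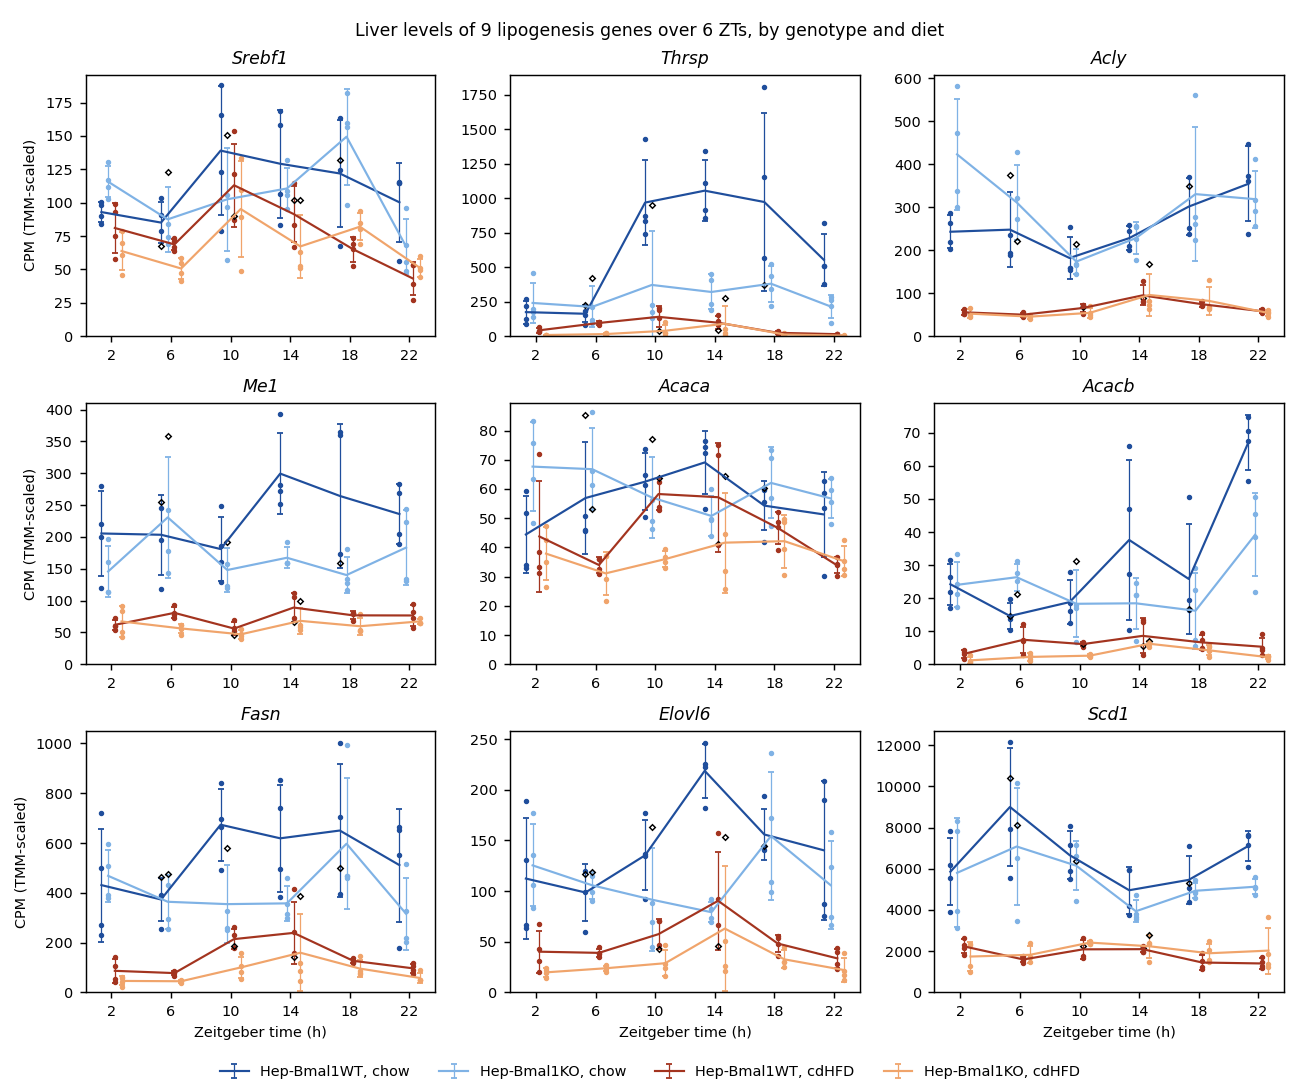
Levels of the 9 genes past the filter (CPM, TMM-scaled, linear axes from 0) over the 6 ZTs, with lines and bars for the mean and SD of 4 livers, points for single livers and black diamonds for the 7 libraries nearer the other genotype. The cdHFD groups run below the chow groups for Thrsp, Acly, Me1, Acacb, Fasn, Elovl6 and Scd1, while those of Srebf1 and Acaca lie closer together.

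The first comparison asked what cdHFD did to the program. All 9 genes fell on cdHFD in Hep-Bmal1WT livers, against 27.0% of all genes tested, and all 9 fell in Hep-Bmal1KO livers, against 29.6%. Every one of the 9 had a lower mean on cdHFD at 6 of 6 ZTs in both genotypes. Their median log2 fold change was -1.84 in Hep-Bmal1WT and -1.90 in Hep-Bmal1KO livers, where the median of all genes was 0.013 and 0.023.

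Thrsp, which encodes the lipogenic regulator Spot 14, had the largest fall of the 9 in either genotype. In Hep-Bmal1WT livers on chow it ran from 84.3 to 1806 CPM with a median of 536, and on cdHFD it reached at most 203 CPM with a median of 43.6. In Hep-Bmal1KO livers it ran from 94.8 to 955 CPM with a median of 224 on chow, and from 2.67 to 276 CPM with a median of 10.4 on cdHFD. The ranges of the diets overlapped in both genotypes. The 276 CPM was held by 1 of the 7 libraries, and without them the highest level in Hep-Bmal1KO livers on cdHFD was 102 CPM. The fall was 9.44-fold in Hep-Bmal1WT (log2 fold change -3.24 ± 0.32 SE, adjusted p = 2.5e-12 in edgeR) and the log2 fold change in Hep-Bmal1KO livers was -4.00 ± 0.38 (adjusted p = 3.1e-13).

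Acly, the ATP-citrate lyase that makes cytosolic acetyl-CoA, did not overlap between the diets in Hep-Bmal1WT livers. It lay between 155 and 448 CPM on chow with a median of 241, and between 45.2 and 129 CPM on cdHFD with a median of 63.1. In Hep-Bmal1KO livers the chow range of 144 to 581 CPM and the cdHFD range of 39.1 to 168 CPM overlapped, with medians of 266 and 54.96. The 168 CPM was held by 1 of the 7 libraries, and without them the highest level on cdHFD was 130 CPM, below all livers on chow. Acly fell 3.89-fold in Hep-Bmal1WT and 4.64-fold in Hep-Bmal1KO livers in edgeR's fit (adjusted p = 1.9e-22 and 5.4e-19).

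Me1, the cytosolic malic enzyme that supplies NADPH, had medians of 233 CPM on chow and 73.1 CPM on cdHFD in Hep-Bmal1WT livers, with no overlap between 118 to 393 CPM and 45.99 to 112 CPM. In Hep-Bmal1KO livers the medians were 159 and 57.6 CPM, with ranges of 113 to 359 and 40.2 to 98.7 CPM that did not overlap either. The fall was 3.14-fold and 2.75-fold (edgeR, adjusted p = 6.6e-20 and 2.5e-17).

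The 2 acetyl-CoA carboxylases differed in how far they fell. Acaca encodes the cytosolic form that feeds fatty acid synthesis, and its medians moved only from 57.1 to 40.1 CPM in Hep-Bmal1WT and from 58.3 to 36.1 CPM in Hep-Bmal1KO livers, with overlapping ranges. Acacb encodes the mitochondrial form whose malonyl-CoA restrains fatty acid import, and its medians went from 20.8 to 5.37 CPM and from 22.2 to 2.65 CPM. The log2 fold change of Acaca was -0.32 ± 0.10 in Hep-Bmal1WT (adjusted p = 0.0040) and -0.69 ± 0.09 in Hep-Bmal1KO livers (adjusted p = 6.0e-09). That of Acacb was -2.19 ± 0.21 and -2.96 ± 0.23 (edgeR, adjusted p = 1.2e-12 and 7.9e-16).

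Among the enzymes that build and modify the chain, Fasn, the fatty acid synthase, ran from 179 to 1002 CPM with a median of 499 on chow and from 42.8 to 414 CPM with a median of 120 on cdHFD in Hep-Bmal1WT livers. In Hep-Bmal1KO livers its medians were 385 and 59.3 CPM. It fell 4.17-fold and 5.33-fold in edgeR (adjusted p = 1.3e-16 and 4.9e-15). Elovl6, which elongates palmitate, had medians of 139 and 43.8 CPM in Hep-Bmal1WT and of 99.2 and 24.3 CPM in Hep-Bmal1KO livers, and fell 2.84-fold and 3.72-fold.

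Scd1, the delta-9 desaturase, did not overlap between the diets in Hep-Bmal1WT livers, with 3777 to 12142 CPM on chow (median 6007) and 1136 to 2657 CPM on cdHFD (median 1759). In Hep-Bmal1KO livers it ran from 3098 to 10184 CPM on chow (median 4971) and from 1004 to 3650 CPM on cdHFD (median 2177), with some overlap. The fall was 3.58-fold in Hep-Bmal1WT and 2.70-fold in Hep-Bmal1KO livers (edgeR, adjusted p = 9.7e-21 and 3.9e-14). Srebf1 changed less, from a median of 105 to 72.2 CPM and from 104 to 60.6 CPM, with log2 fold changes of -0.56 ± 0.11 and -0.62 ± 0.10 (edgeR, adjusted p = 2.3e-05 and 1.2e-06).

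The falls of Srebf1 and Acaca depend on the scaling. With library totals in place of TMM, the median of all genes moved to a log2 fold change of 0.50 in both genotypes, so that Acaca in Hep-Bmal1WT livers became 0.17 (adjusted p = 0.14) and Srebf1 became -0.076 in Hep-Bmal1WT (adjusted p = 0.55) and -0.14 in Hep-Bmal1KO livers (adjusted p = 0.21), all of them below that median. The other 7 genes were called as lower under each scaling in both genotypes. Without the 7 libraries nearer the other genotype, all 9 were again called as lower in both genotypes, with Acaca in Hep-Bmal1WT livers at -0.23 (adjusted p = 0.038). The call of Acaca in Hep-Bmal1WT livers was lost in males (-0.16, adjusted p = 0.41) and without replicate 2 or 4 of every group (edgeR, adjusted p = 0.051 and 0.079).

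Cell type markers moved with the diet. All 5 hepatocyte markers fell in both genotypes, and their summed level went from a median of 149560 CPM (range 90200 to 206097) to 73288 CPM (53196 to 89965) in Hep-Bmal1WT and from 100997 CPM (76341 to 209453) to 61306 CPM (47475 to 83075) in Hep-Bmal1KO livers. All 6 macrophage markers and all 5 stellate cell markers rose, the macrophage sum from medians of 348 to 1785 CPM and of 332 to 1961 CPM, and the stellate sum from 258 to 627 CPM and from 256 to 773 CPM. Their part in the falls of the lipogenesis genes was not tested, and in whole liver fewer cells of a type and less RNA per cell cannot be told apart. Adipose tissue also expresses these genes. Of its markers, Lep was at 0 in 22 to 24 and Adipoq in 14 to 18 of the 24 livers of each genotype and diet. Cfd was at 0 in only 5 to 10 of them, with medians from 0.13 to 0.57 CPM. Single livers reached 67.7 CPM of Cfd on chow and 60.8 CPM on cdHFD in Hep-Bmal1WT, and 46.5 and 33.4 CPM in Hep-Bmal1KO. Whether adipose RNA was present in such livers was not tested. Of the 4 adipocyte markers past the filter, 1 rose and 2 fell on cdHFD in Hep-Bmal1WT livers, and 1 rose in Hep-Bmal1KO livers. Cidec, a lipid droplet gene that steatotic hepatocytes also express, had medians of 3.22 CPM on chow and 59.3 CPM on cdHFD in Hep-Bmal1WT livers.

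**Figure D2:**
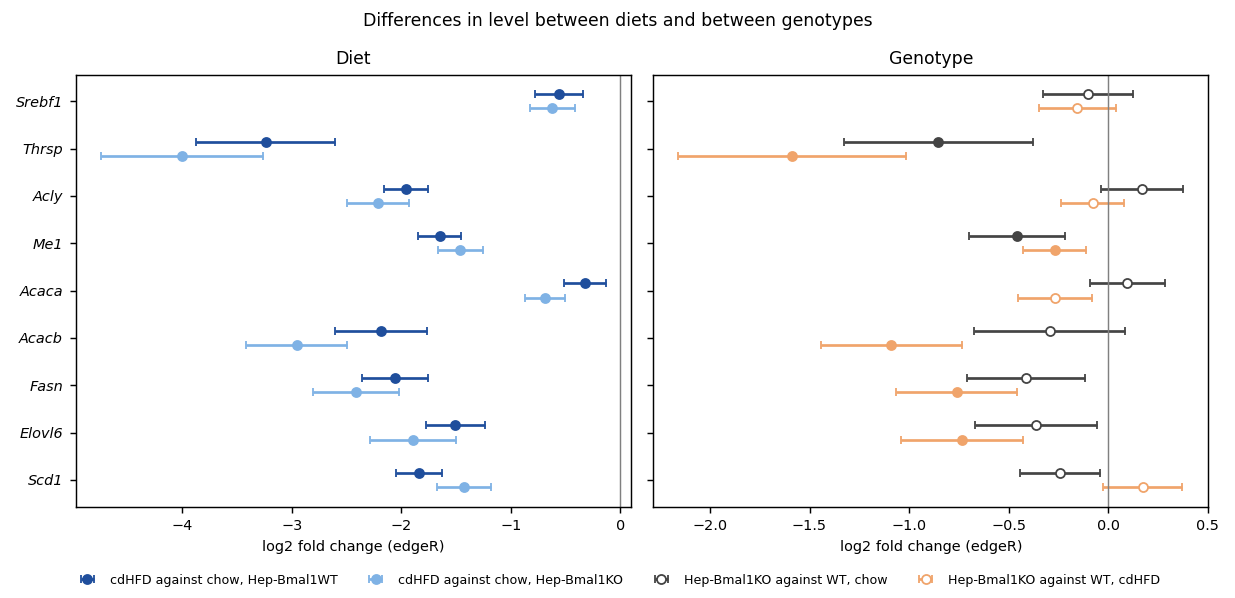
Log2 fold changes of the 9 genes between diets (left) and between genotypes (right), from edgeR, with bars for the 95% interval and filled points where the adjusted p was under 0.05. The diet differences are all below 0 and reach -4.00 for Thrsp, whereas the genotype differences lie between -1.59 and 0.17.

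The genotypes were compared next, within each diet. On chow, 2 of the 9 genes, Thrsp and Me1, were lower in Hep-Bmal1KO livers, against 5.61% of all genes, and none was higher. On cdHFD, 5 of 9 were lower, Thrsp, Acacb, Fasn, Elovl6 and Me1, against 4.99% of all genes, and none was higher.

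On chow, Thrsp had medians of 536 CPM in Hep-Bmal1WT and 224 CPM in Hep-Bmal1KO livers, with overlapping ranges. The genotypes were apart at ZT14, where Hep-Bmal1WT livers held 1343, 1110, 916 and 855 CPM and Hep-Bmal1KO livers 448, 410, 192 and 234 CPM, and also at ZT22. At ZT10 the Hep-Bmal1WT livers lay between 739 and 1429 CPM, and 3 of the 4 Hep-Bmal1KO livers between 129 and 227 CPM. The fourth, replicate 3, held 955 CPM and is 1 of the 7 libraries nearer the other genotype. The log2 fold change over the 6 ZTs was -0.85 ± 0.24 (adjusted p = 0.013 in edgeR), and -1.13 ± 0.23 without the 7 libraries (adjusted p = 2.5e-04). The call was lost in females (-0.51, adjusted p = 0.47) and without replicate 1 or 2 of every group (-0.79 and -0.68, edgeR, adjusted p = 0.077 and 0.17). Replicates 1 and 2 of every chow group were male, so the loss without them cannot be told apart from a difference between the sexes.

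Me1 had medians of 233 and 159 CPM on chow and a log2 fold change of -0.46 ± 0.12 (edgeR, adjusted p = 0.0076), a call that was lost without replicate 1 or 2 of every group (-0.34 and -0.25, adjusted p = 0.19 and 0.34). On chow, replicates 1 and 2 of every group were male, so this loss cannot be told apart from a difference between the sexes. The 2 sexes were unlike. Male Hep-Bmal1WT livers had a median of 275 CPM (186 to 393, n = 12) and male Hep-Bmal1KO livers 145 CPM (113 to 242, n = 12), whereas the female medians were 181 CPM (118 to 272, n = 12) and 186 CPM (114 to 359, n = 12). The log2 fold change was -0.90 ± 0.11 in males (edgeR, adjusted p = 6.3e-07) and 0.061 ± 0.14 in females (adjusted p = 0.91). A test of genotype by sex on chow, added after these values were seen, gave a difference of 0.97 ± 0.19 between the sexes (edgeR, adjusted p = 0.0055, and 0.017 without the 7 libraries). In that test 1 of the 9 genes, Me1, was called, against 0.341% of all genes. On cdHFD edgeR called none of the 9, also at an unadjusted p under 0.05, against 0% of all genes, and no other tool was run.

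The other 7 genes on chow had adjusted p between 0.065 and 0.67. Fasn was at a log2 fold change of -0.41 ± 0.15 (adjusted p = 0.065) and Elovl6 at -0.36 ± 0.16 (adjusted p = 0.13), and without the 7 libraries both were called, at -0.50 and -0.46 (edgeR, adjusted p = 0.025 and 0.048). With all libraries kept, Fasn passed in DESeq2 (adjusted p = 0.049) and with sex as a covariate in edgeR (adjusted p = 0.033). Of 14 alternative settings, Fasn was called in 5 and Elovl6 in 2. In females neither was called (edgeR, adjusted p = 0.83 and 0.68). Scd1, at -0.24 ± 0.10, had a lower mean in Hep-Bmal1KO livers at 6 of 6 ZTs but did not pass (adjusted p = 0.12). Acly and Acaca were at 0.17 ± 0.11 and 0.096 ± 0.096. At ZT2 the 4 Hep-Bmal1KO livers held 472, 299, 338 and 581 CPM of Acly, all above the 219, 203, 286 and 263 CPM of Hep-Bmal1WT livers. Over all genes, Hep-Bmal1KO livers were above without overlap in 3.13% of gene and ZT combinations on chow.

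On cdHFD, Thrsp was again the gene with the largest genotype difference of the 9, with medians of 43.6 and 10.4 CPM. At ZT6 Hep-Bmal1WT livers held 106, 79.6, 103 and 95.2 CPM and Hep-Bmal1KO livers 6.61, 6.75, 25.2 and 23.6 CPM, with no overlap. At ZT14 replicate 1 of Hep-Bmal1KO held 276 CPM beside 55.02, 23.8 and 7.98 CPM in the other 3, and replicate 1 of Hep-Bmal1WT held 47.7 CPM beside 113, 153 and 78.3 CPM, both among the 7 libraries. The log2 fold change was -1.59 ± 0.29 (edgeR, adjusted p = 1.5e-04), and -1.99 ± 0.23 without those libraries.

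Acacb had medians of 5.37 and 2.65 CPM on cdHFD and fell 2.13-fold in Hep-Bmal1KO livers (-1.09 ± 0.18, adjusted p = 3.8e-05 in edgeR). Fasn, with 85.6, 78.1, 65.1 and 80.1 CPM at ZT6 in Hep-Bmal1WT and 46.3, 35.7, 49.3 and 46.7 CPM in Hep-Bmal1KO livers, was 1.69-fold lower over the 6 ZTs (adjusted p = 6.1e-04). Elovl6 was 1.66-fold and Me1 1.21-fold lower (edgeR, adjusted p = 0.0010 and 0.021). The call of Elovl6 was lost without replicate 3 of every group (edgeR, adjusted p = 0.061), and that of Me1 in males (adjusted p = 0.36) and without replicate 2, 3 or 4 (adjusted p = 0.24, 0.051 and 0.066). Thrsp, Acacb, Fasn and Elovl6 were lower in mean at 6 of 6 ZTs. Acaca was at -0.27 ± 0.09 (adjusted p = 0.061, and 0.028 without the 7 libraries), and Srebf1, Acly and Scd1 were at -0.15, -0.077 and 0.17 with adjusted p from 0.33 to 0.65.

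Counted by ZT, the 4 livers of each genotype did not overlap in 9 of 54 gene and ZT combinations on chow. Hep-Bmal1KO livers were above in 3, against 3.13% of all such combinations over all genes, and below in 6, against 2.63%. Those below were Elovl6, Me1 and Thrsp at ZT14 and Acacb, Scd1 and Thrsp at ZT22, and those above Srebf1 and Acly at ZT2 and Acacb at ZT6. On cdHFD the genotypes did not overlap in 11 of 54, all with Hep-Bmal1KO below, against 2.73% below and 2.77% above over all genes. These were Srebf1, Fasn, Elovl6, Me1 and Thrsp at ZT6, Acaca, Acacb and Fasn at ZT10, Acacb and Thrsp at ZT22, and Thrsp at ZT2.

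Markers of other cells also differed by genotype on cdHFD. In Hep-Bmal1KO livers 3 of 5 hepatocyte markers were lower, and 4 of 5 stellate, 2 of 2 neutrophil and 2 of 4 cholangiocyte markers were higher. Of 6 macrophage markers 1 was higher and 1 lower, and 1 of the 4 adipocyte markers past the filter was lower. On chow 2 of 5 hepatocyte markers and 1 of 4 adipocyte markers were lower, and 1 of 4 cholangiocyte markers was higher. Their part in the genotype differences was not tested.

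Whether the genotype difference changed with diet was tested as an interaction. None of the 9 genes passed in edgeR, against 3.04% of all genes, nor in DESeq2, and 3 had an unadjusted p under 0.05. These were Acacb with an interaction of -0.78 ± 0.28, Scd1 with 0.41 ± 0.15 and Acaca with -0.36 ± 0.14 on the log2 scale, at adjusted p of 0.11, 0.11 and 0.14. The 5 calls on cdHFD and 2 on chow are therefore not shown to differ between the diets.

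The 24-h pattern was then described with a cosine curve for each genotype and diet. The amplitude is that of the fitted curve on variance-stabilized log2 values, so that it is the height of the peak above the curve's middle, and rhythm was called from edgeR's test of both cosine terms.

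In Hep-Bmal1WT livers on chow, 4 of 9 genes were rhythmic, against 19.1% of all genes. Thrsp had an amplitude of 1.502 ± 0.22 (SE) and peaked at ZT15.2 ± 0.56 h (adjusted p = 7.2e-05). Elovl6 peaked near it, at ZT15.4 ± 1.06 h with an amplitude of 0.52 ± 0.14. Acacb and Acly peaked later, at ZT20.4 ± 1.15 h and ZT21.3 ± 0.93 h, with amplitudes of 0.68 ± 0.21 and 0.39 ± 0.09. Acacb at ZT22 held 74.8, 70.7, 55.5 and 67.4 CPM, while at ZT6 its 4 livers lay between 10.5 and 19.8 CPM.

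In Hep-Bmal1KO livers on chow, 1 of 9 was rhythmic, against 4.34% of all genes. That gene was Acly, with an amplitude of 0.48 ± 0.12 and a peak at ZT23.9 ± 0.92 h (adjusted p = 0.027 in edgeR). Its fitted peak lay 2.56 ± 1.34 h later than in Hep-Bmal1WT livers (unadjusted p = 0.063 in the cosine fit), and 3.18 ± 1.28 h later without the 7 libraries. In edgeR's test of rhythm by genotype Acly did not pass (adjusted p = 0.81, and 0.47 without these libraries). Thrsp had a fitted amplitude of 0.44 ± 0.23 and an adjusted p of 0.425 in edgeR.

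A rhythm called in 1 genotype and not in the other is not a tested difference. In edgeR's test of rhythm by genotype on chow, none of the 9 genes passed, against 0.392% of all genes, nor in DESeq2, and 5 had an unadjusted p under 0.05, namely Thrsp, Acaca, Acacb, Elovl6 and Me1. The amplitude of Thrsp differed by -1.07 ± 0.32, Hep-Bmal1KO minus Hep-Bmal1WT (unadjusted p = 0.0017, adjusted p = 0.56). Without the 7 libraries Thrsp passed the test of rhythm by genotype (adjusted p = 0.028), with an amplitude difference of -1.04. Since clock genes were used to pick these libraries, leaving them out can by itself widen such a difference.

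On cdHFD, 6 of 9 genes were rhythmic in Hep-Bmal1WT livers, against 14.6% of all genes, and 5 of 9 in Hep-Bmal1KO livers, against 3.83%. Thrsp, Fasn, Elovl6 and Acly were called in both, Srebf1 and Acaca in Hep-Bmal1WT and Acacb in Hep-Bmal1KO livers. Fasn, not called on chow, had an amplitude of 0.81 ± 0.14 with a peak at ZT13.4 ± 0.67 h in Hep-Bmal1WT and of 0.76 ± 0.19 with a peak at ZT14.4 ± 0.93 h in Hep-Bmal1KO livers (edgeR, adjusted p = 1.9e-04 and 0.0041). Elovl6 peaked at ZT13.1 and ZT14.0 in the 2 genotypes, but in Hep-Bmal1KO livers its call was lost without the 7 libraries (adjusted p = 0.027 with and 0.16 without them). In edgeR's test of rhythm by genotype on cdHFD none of the 9 passed, against 0.424% of all genes, nor in DESeq2, and 1, Thrsp, had an unadjusted p under 0.05. The peak of Thrsp, rhythmic in both, came 2.34 ± 1.08 h later in Hep-Bmal1KO livers, and 1.4995 ± 0.95 h later without the 7 libraries.

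**Figure D3:**
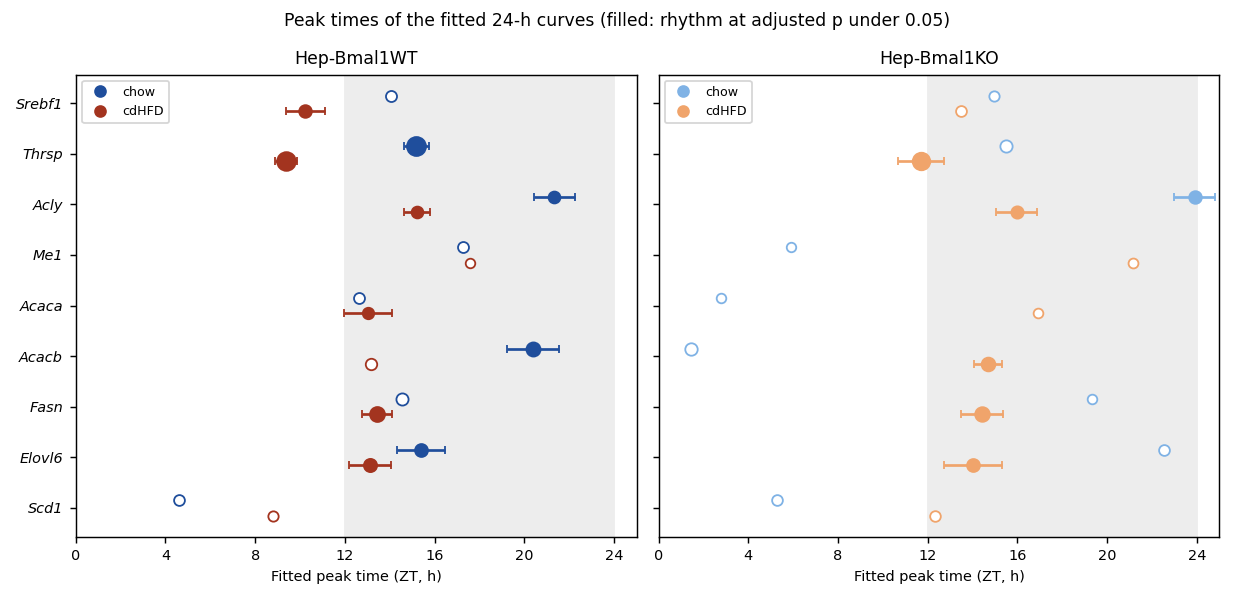
Fitted peak times (ZT, hours) of the 9 genes by genotype and diet, with filled points and bars of 1 SE where a rhythm was called and open points elsewhere. Point area grows with amplitude, and the grey field marks the dark phase. Acly and Thrsp lie about 6 h earlier on cdHFD than on chow in Hep-Bmal1WT livers, at ZT15.2 against ZT21.3 and at ZT9.37 against ZT15.2.

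Diet changed the rhythm of 3 of 9 genes in Hep-Bmal1WT livers, against 6.19% of all genes, namely Thrsp, Acly and Acacb (edgeR, adjusted p = 4.4e-06, 0.0022 and 0.039). For Thrsp the peak came 5.81 ± 0.74 h earlier on cdHFD. On chow its 4 livers at ZT18 held 1806, 1152, 564 and 372 CPM, the last of them 1 of the 7 libraries, above the 84.3 to 228 CPM at ZT6, whereas on cdHFD those at ZT6 held 79.6 to 106 CPM, above the 12.3 to 39.5 CPM at ZT18. For Acly the peak came 6.14 ± 1.10 h earlier, from ZT21.3 to ZT15.2. The peak of Elovl6, rhythmic on both diets, differed by -2.27 ± 1.42 h, less than 2 SE. The amplitudes of Thrsp and Acly on the 2 diets differed by -0.045 ± 0.28 and -0.0076 ± 0.11, cdHFD minus chow.

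In Hep-Bmal1KO livers diet changed the rhythm of 2 of 9 genes, Acly and Acacb (edgeR, adjusted p = 0.011 and 0.016), against 0.907% of all genes. Acly had a peak time difference of -7.94 ± 1.30 h, cdHFD minus chow. Thrsp did not pass with all libraries (adjusted p = 0.083) but did without the 7 (adjusted p = 0.025), and DESeq2 called 3 of the 9. Acacb, which was not rhythmic on chow in this genotype, had an amplitude of 0.63 ± 0.10 and a peak at ZT14.7 ± 0.62 h on cdHFD.

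The clock genes peaked earlier on cdHFD in Hep-Bmal1WT livers. Arntl peaked at ZT23.4 ± 0.35 h on chow and at ZT18.7 ± 0.36 h on cdHFD in Hep-Bmal1WT livers, a difference of -4.66 ± 0.51 h. Of the 11 clock genes, 10 were rhythmic on both diets there, with differences from -6.77 to -3.85 h, and 4 were in Hep-Bmal1KO livers, with -2.25 to -0.16 h. Over the 979 genes rhythmic on both diets in Hep-Bmal1WT livers the median difference was -2.05 h, with quartiles of -4.21 and 0.031 h. Over the 101 such genes in Hep-Bmal1KO livers it was -0.94 h, with quartiles of -3.28 and 0.41 h. Its part in the shifts of Thrsp and Acly was not tested, and since each diet and ZT had its own range of mouse numbers, the diet cannot be told apart from that range.

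For amplitude alone, none of the 9 genes passed at an adjusted p under 0.05 in any of the 4 comparisons of genotype or diet, against 0.0193% of all genes for genotype on either diet, 0.0579% for diet in Hep-Bmal1WT and 0% for diet in Hep-Bmal1KO livers. At an unadjusted p under 0.05 the counts were 1, Thrsp, for genotype on chow (4.12% of all genes), 0 for genotype on cdHFD (2.93%), 0 for diet in Hep-Bmal1WT (7.92%) and 1, Fasn, for diet in Hep-Bmal1KO livers (4.25%). Fasn had a fitted amplitude 0.62 ± 0.24 larger on cdHFD there (unadjusted p = 0.015), and 0.35 without the 7 libraries (unadjusted p = 0.13). Without these libraries the counts at an unadjusted p under 0.05 became 2 for genotype on chow, 1 for genotype on cdHFD and 0 for diet in either genotype. Me1 then passed on chow with an amplitude difference of -0.36 (unadjusted p = 0.033), and Thrsp on cdHFD with -0.65 (unadjusted p = 0.041), against -0.22 with all libraries.

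**Figure D4:**
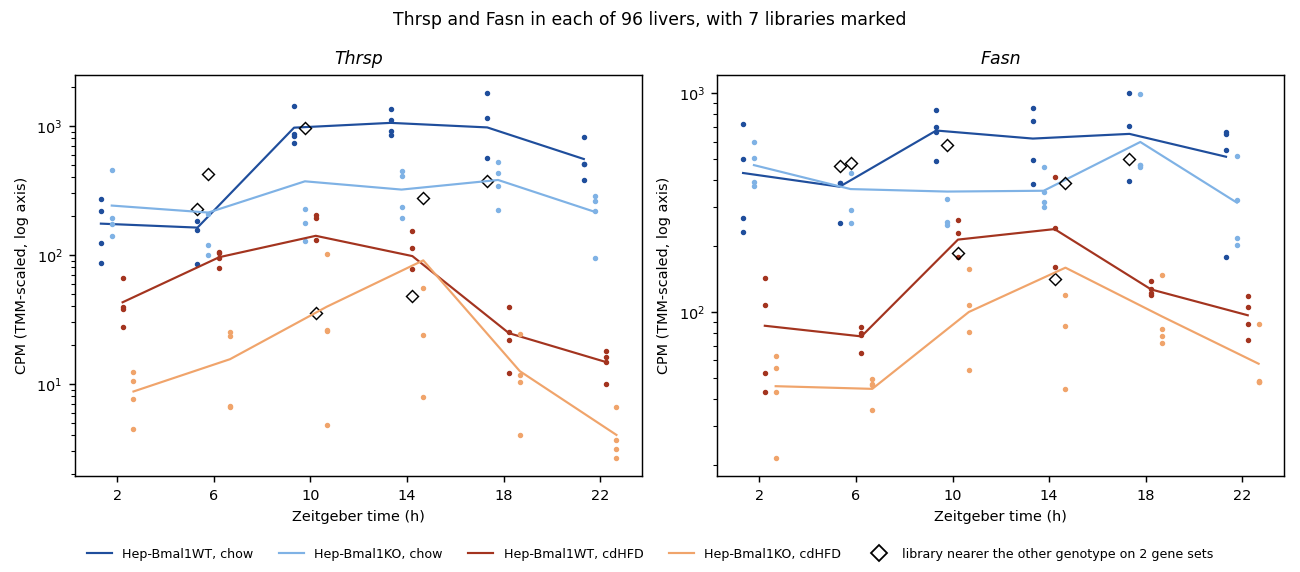
Thrsp and Fasn in each of the 96 livers (CPM, TMM-scaled, log axis) by ZT, with lines for the means of 4 and diamonds for the 7 libraries nearer the other genotype. Among the Hep-Bmal1KO libraries so marked, Thrsp is at 955 CPM at ZT10 on chow and at 276 CPM at ZT14 on cdHFD, above the other 3 livers of each group.

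The genes that feed and control lipogenesis were read from a list of 20, all past the filter. On cdHFD 13 of 20 fell and 2 rose in Hep-Bmal1WT livers, against 27.0% and 28.7% of all genes, and 16 fell and 2 rose in Hep-Bmal1KO livers, against 29.6% and 32.4%. The falls with the smallest p were Acss2, which activates acetate, at a log2 fold change of -3.06 and -3.64 in the 2 genotypes, and Insig1, which retains SCAP and SREBP in the endoplasmic reticulum, at -3.03 and -3.07. The third was Idh1, a cytosolic source of NADPH, at -1.10 in Hep-Bmal1WT and Scap, the escort of SREBP, at -1.14 in Hep-Bmal1KO livers. The pair that rose were G6pdx at 1.13 and 1.53 and Pgd at 0.65 and 0.76, both NADPH-producing enzymes of the pentose phosphate pathway. Their direction was opposite to that of Me1 and Idh1. Without the 7 libraries the fall of Elovl5 in Hep-Bmal1WT livers was no longer called (edgeR, adjusted p = 0.064). Nr1h3 and Insig2 were then called as higher on cdHFD in these livers (edgeR, adjusted p = 0.048 and 0.013).

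By genotype, 7 of 20 were lower and 4 higher in Hep-Bmal1KO livers on chow, against 5.61% and 7% of all genes, and 7 lower and 1 higher on cdHFD, against 4.99% and 4.62%. Mlxipl, which encodes ChREBP, was lower at -0.57 ± 0.09 on chow and -0.66 ± 0.08 on cdHFD (edgeR, adjusted p = 2.2e-05 and 7.0e-07), and Pklr, a glycolytic ChREBP target, at -0.51 ± 0.11 and -0.42 ± 0.10. G6pdx was lower on chow at -0.46 ± 0.14, and Dgat2, which makes triglyceride, on cdHFD at -0.48 ± 0.08. Insig2, a second SREBP-retaining protein, was higher on chow at 0.97 ± 0.17, as were Slc25a1, the citrate carrier, at 0.30 ± 0.07 and Acss2 at 0.43 ± 0.10, and Elovl5 was higher on cdHFD at 0.28 ± 0.09. In the interaction of genotype and diet 1 of 20, Acss2, was called, against 3.04% of all genes (-0.57 ± 0.13, adjusted p = 0.0035 in edgeR). Without the 7 libraries Acss2 was at -0.70, and Insig2 at -0.83 and Slc25a1 at -0.30 were also called (edgeR, adjusted p = 0.0016 and 0.040). By genotype, Tkt on chow and Fads1 and Fads2 on cdHFD were then also called as lower, and Insig2 on cdHFD as higher. Leaving these libraries out can by itself widen genotype differences.

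Of the same 20, 11 were rhythmic in Hep-Bmal1WT livers on chow (19.1% of all genes), 7 on cdHFD (14.6%), 7 in Hep-Bmal1KO livers on chow (4.34%) and 2 on cdHFD (3.83%). Those with the smallest p were Dgat2, Insig2 and Scap, then Insig2, Idh1 and Tkt, then Acss2, Mlxipl and Pgd, and then Insig2 and Insig1. Insig2 peaked at ZT0.016 ± 0.51 h on chow and at ZT19.2 ± 0.47 h on cdHFD in Hep-Bmal1WT livers.

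Among livers of the same genotype, diet and ZT, the levels of the 9 genes were correlated to differing degrees. Over the 96 livers, and after the mean of each group of 4 was taken out, the correlation of their log2 CPM had a median of 0.34 over 36 pairs, from -0.026 for Srebf1 with Acacb to 0.83 for Fasn with Elovl6. The pairs of Acacb ran only from -0.026 to 0.32, the highest with Thrsp. These values share library depth and scaling and are given as a description. The 7 libraries nearer the other genotype were kept in, and pairs of other genes were not computed beside them. Over the 24 group means, the correlation with the mean standardized profile of the 9 genes ranged from 0.79 for Srebf1 to 0.98 for Fasn. Each gene is itself part of that profile and all 9 were lower on cdHFD, so high values were in part fixed in advance. Of 8991 other genes with a mean of at least 5 CPM, Pde3b, Hao1 and Adipor2 were among the 5 most alike, each with r = 0.97 over the 24 means.

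Sex was compared over all groups. Me1 was lower in females at -0.19 ± 0.07 (edgeR, adjusted p = 0.047), against 8.24% of all genes, and the other 8 genes were not called. That call was lost with DESeq2's size factors in edgeR.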

How the data were processed

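The authors sequenced 3′ tags of liver mRNA (BRB-seq), aligned reads to mm10 with STAR, counted them with HTSeq or featureCounts, and deposited raw counts per gene. Whether molecular identifiers were collapsed is not given in the sources used here. Rows naming no gene held 22.6% to 39.9% of reads and were left out. Counts were analysed in R 4.3.3 with edgeR 4.0.16 (TMM, quasi-likelihood, ZT as a factor for levels) and DESeq2 1.42.0 (variance-stabilized values for cosine fits by least squares with a 24-h period, and as an alternative test). The edgeR tests were run on simulated data for 5 of the comparisons, with 200 genes changed at a log2 size of 1. Recovery ran from 81% for rhythm by genotype on chow to 96.5% for genotype on chow. False calls ran from 2.13% of calls for diet in Hep-Bmal1WT to 8.08% for rhythm in Hep-Bmal1WT on chow. Replicate numbers follow sample order, mice are the replicates, and no pair of the 144 within groups agreed within sampling noise. Every gene of the set was described, with up to 3 genes of the supply list called per direction and 5 genes of most similar pattern, of which 2 are not reported here. A planned promoter motif search was not run. The members and lists were chosen with earlier results of these data known.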

Additional observations from a re-analysis of the deposited data

Results flagged for a closer look

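Dixon's test over the 9 genes in the 24 groups of 4 livers set 1 liver apart in 15 of 216 cases, where its nominal rate is about 1 in 20. That rate is for independent, normally distributed values, whereas these were CPM of genes correlated within groups. The count was not tested against it. In 14 of these the liver was the highest of its group and in 1 the lowest, and 2 were among the 7 libraries nearer the other genotype, namely Thrsp at 955 CPM in Hep-Bmal1KO chow ZT10 replicate 3 (the other 3 between 129 and 227 CPM) and Acaca at 85.4 CPM in Hep-Bmal1WT chow ZT6 replicate 2 (45.7 to 50.6 CPM).

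Several genes stood apart in the same liver. Hep-Bmal1KO cdHFD ZT18 replicate 2 was highest for Acly at 130 CPM, Fasn at 148 CPM and Me1 at 79.2 CPM. Hep-Bmal1KO chow ZT18 replicate 3 was highest for Acly at 562 CPM and Fasn at 993 CPM, Hep-Bmal1KO cdHFD ZT22 replicate 4 for Fasn at 88.02 CPM and Me1 at 73.4 CPM, and Hep-Bmal1WT chow ZT18 replicate 1 for Acacb at 50.5 CPM and Elovl6 at 194 CPM. Single genes stood apart in Hep-Bmal1WT chow ZT10 replicate 2 (Acly, 254 CPM), Hep-Bmal1KO chow ZT2 replicate 4 (Thrsp, 458 CPM), Hep-Bmal1KO chow ZT14 replicate 3 (Me1, 192 CPM) and Hep-Bmal1WT chow ZT22 replicate 1 (Srebf1, the lowest, 55.98 CPM).

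In edgeR's tests of the difference itself, rhythm differed between diets in Hep-Bmal1WT livers for Thrsp, Acly and Acacb (adjusted p = 4.4e-06, 0.0022 and 0.039) and in Hep-Bmal1KO livers for Acly and Acacb (adjusted p = 0.011 and 0.016). The genotype difference of Me1 on chow differed between the sexes (adjusted p = 0.0055), with males at -0.90 and females at 0.061 on the log2 scale.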

How the results depend on the processing

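No paired analysis was possible because replicate numbers follow sample order and pair no mice. They also go with sex. On chow, replicates 1 and 2 were male and 3 and 4 female in every group, and on cdHFD in most groups. Leaving out a replicate therefore also shifts the balance of the sexes. Of the alternative counts of genes called, 209 stayed within 1.5 times the reported count and 36 did not. Of the alternative values for single genes, 636 kept direction and side of the threshold, 15 fell below it, 14 passed it and 15 changed sign. The cause of a change was not tested.

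Without the 7 libraries nearer the other genotype, 4 genes were called for genotype on chow and 1 for rhythm by genotype on chow. The way these libraries were picked can by itself favour such calls. With males alone, 5 were called for genotype on chow, 2 for genotype by diet, 2 for rhythm in Hep-Bmal1KO on chow and 1 for rhythm by genotype on chow. With females alone, 0 were called for genotype on chow, 2 for rhythm in Hep-Bmal1WT on chow, 3 for the same on cdHFD, 0 for rhythm in Hep-Bmal1KO on chow, 1 for the same on cdHFD and 0 for rhythm by diet in Hep-Bmal1KO. The single call by sex became 0 with DESeq2's size factors and 3 with no filter beyond 1 count. At an unadjusted p under 0.05, 1 gene passed for amplitude by genotype on chow and 1 for amplitude by diet in Hep-Bmal1KO.

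Leaving out replicates 1 to 4 in turn from every group gave 0 to 4 genes for genotype on chow (0 without replicate 1 or 2), 3 to 5 for genotype on cdHFD, 8 to 9 and 9 to 9 for diet in Hep-Bmal1WT and Hep-Bmal1KO, 2 to 5 and 4 to 6 for rhythm in Hep-Bmal1WT on chow and cdHFD, 0 to 1 and 2 to 5 for rhythm in Hep-Bmal1KO on chow and cdHFD, 1 to 3 and 0 to 1 for rhythm by diet in Hep-Bmal1WT and Hep-Bmal1KO, and 0 for sex.

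Signs changed as follows on the log2 scale. Me1 by genotype on chow was 0.061 in females, and Me1 in genotype by diet was -0.39 in females. Acly by genotype on cdHFD was 0.069 in males and ran from -0.16 to 0.031 with 1 replicate left out. Acaca by diet in Hep-Bmal1WT was 0.17 with library totals. Srebf1 in genotype by diet was 0.00094 without the 7 libraries, 0.050 in males and -0.16 to 0.015 with 1 replicate left out. The amplitude difference of Thrsp by genotype on cdHFD, -0.22 with all libraries, was 0.13 in males, 0.013 in females and -0.65 without the 7 libraries, and that by diet in Hep-Bmal1WT was 0.035 on log2 CPM, 0.049 without the 7 libraries, 0.19 in females and -0.25 to 0.14 with 1 replicate left out. Every value with a changed sign had a p above 0.05. With 1 library of 1861740 counts and Acacb at a median of 2.65 CPM in Hep-Bmal1KO livers on cdHFD, depth limits Acacb and Pnpla3 most.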
